A study of Mus musculus with 8 samples.

Results

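The genes of the mitochondrial respiratory chain and of ATP synthase were compared between glomeruli of mice that lack the tetraspanin Cd151 and glomeruli of wild type mice. They were taken from the array table by gene symbol, as every symbol that starts with Nduf followed by a, b, c, s or v, with Uqcr, with Cox and a digit from 4 to 8, or with Atp5, and as the Sdh genes. This gave 88 of the 25697 probes and 73 of the 18120 gene symbols, 32 symbols for complex I, 3 for complex II, 6 for complex III, 16 for complex IV and 16 for complex V. The tissue was a glomerular isolate, and the mice were FVB/N males aged 3 weeks, 4 of them Cd151+/+ and 4 Cd151-/-. They had no treatment, and each array held the RNA of 1 mouse. The labels name no conditional allele, and the isolate holds podocytes, endothelial and mesangial cells together with any tubule that stayed attached. In such bulk RNA, fewer cells of a type and less RNA per cell cannot be told apart.

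The respiratory chain sits in the inner mitochondrial membrane. Complexes I and II pass electrons from NADH and succinate to ubiquinone, complex III passes them on to cytochrome c, complex IV passes them to oxygen, and complexes I, III and IV pump protons that drive ATP synthase, also called complex V. Apart from complex II, these complexes join nuclear-encoded subunits, which are the genes described here, with subunits encoded in mitochondrial DNA. In the kidney, proximal tubule cells are densely packed with mitochondria, whereas glomerular cells hold fewer.

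The arrays were Illumina MouseRef-8 v1.1 BeadChips, which report each probe as the brightness of the beads that carry it. Values below are normalised log2 signal after background correction and quantile normalisation, and a difference is always Cd151-/- minus Cd151+/+ on that log2 scale. A probe counted as detected on an array at a detection p-value of 0.05 or lower, and limma was run on the 14967 probes that were detected anywhere. Between 69 and 74 of the 88 probes were detected per array. All 3 Cd151 probes were detected in the 4 Cd151+/+ mice and on none of the Cd151-/- arrays, and the podocyte genes Podxl, Ptpro and Wt1 on all 8 arrays. The background intensity split the arrays evenly, in a way that the labels do not name. It was between 122 and 132 in Cd151+/+ mice 3 and 4 and in mice 1 and 2 of the Cd151-/- group, the higher-background arrays below. It was between 58.3 and 69.1 in the remaining 2 mice of each genotype, the lower-background arrays.

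No respiratory chain or ATP synthase gene passed the test between the genotypes. Of the 78 probes tested, for 66 genes, 0 had an adjusted p below 0.05 (limma with Benjamini-Hochberg adjustment), against 0.0334% of all probes tested. At an unadjusted p below 0.05, 0 were higher and 0 lower in Cd151-/- glomeruli, where 1.69% of all probes were higher and 2.61% lower, 4.30% in all. SAM, a permutation method, also called 0 of them, against 0.608% of all probes. In none of the 78 did the 4 mice of one genotype all lie above the 4 of the other, which held for 0.855% of all probes upward and 1.46% downward, 2.31% in all. The lowest adjusted p among them was 0.918.

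The differences were small and leaned upward. Over the 66 genes, with the probe of the highest mean for each gene, the median difference was 0.11 and 52 genes (78.8%) were above 0, beside a median of -0.0018 and 49.7% over all 11240 genes tested. For 42 of the 66 the difference was smaller than 0.2 in size, and for 6 it was larger than 0.5. The 95% confidence interval of limma lay between a log2 difference of -1 and 1 for 54 of them (81.8%, against 71.2% of all genes), and at the median it reached 0.54 to either side of the difference, and at the narrowest 0.42. Over the 56 genes detected on all 8 arrays, the median was 0.097, with 43 above 0. The 7 genes with no probe detected on any array, Ndufs1, Ndufb4, Ndufb9, Uqcrfs1, Cox7b, Cox8c and Atp5k, have no values here. The symbols also take in Ndufaf1, an assembly factor of complex I, and Atp5s, now named Dmac2l, which is no subunit of the synthase.

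**Figure D1:**
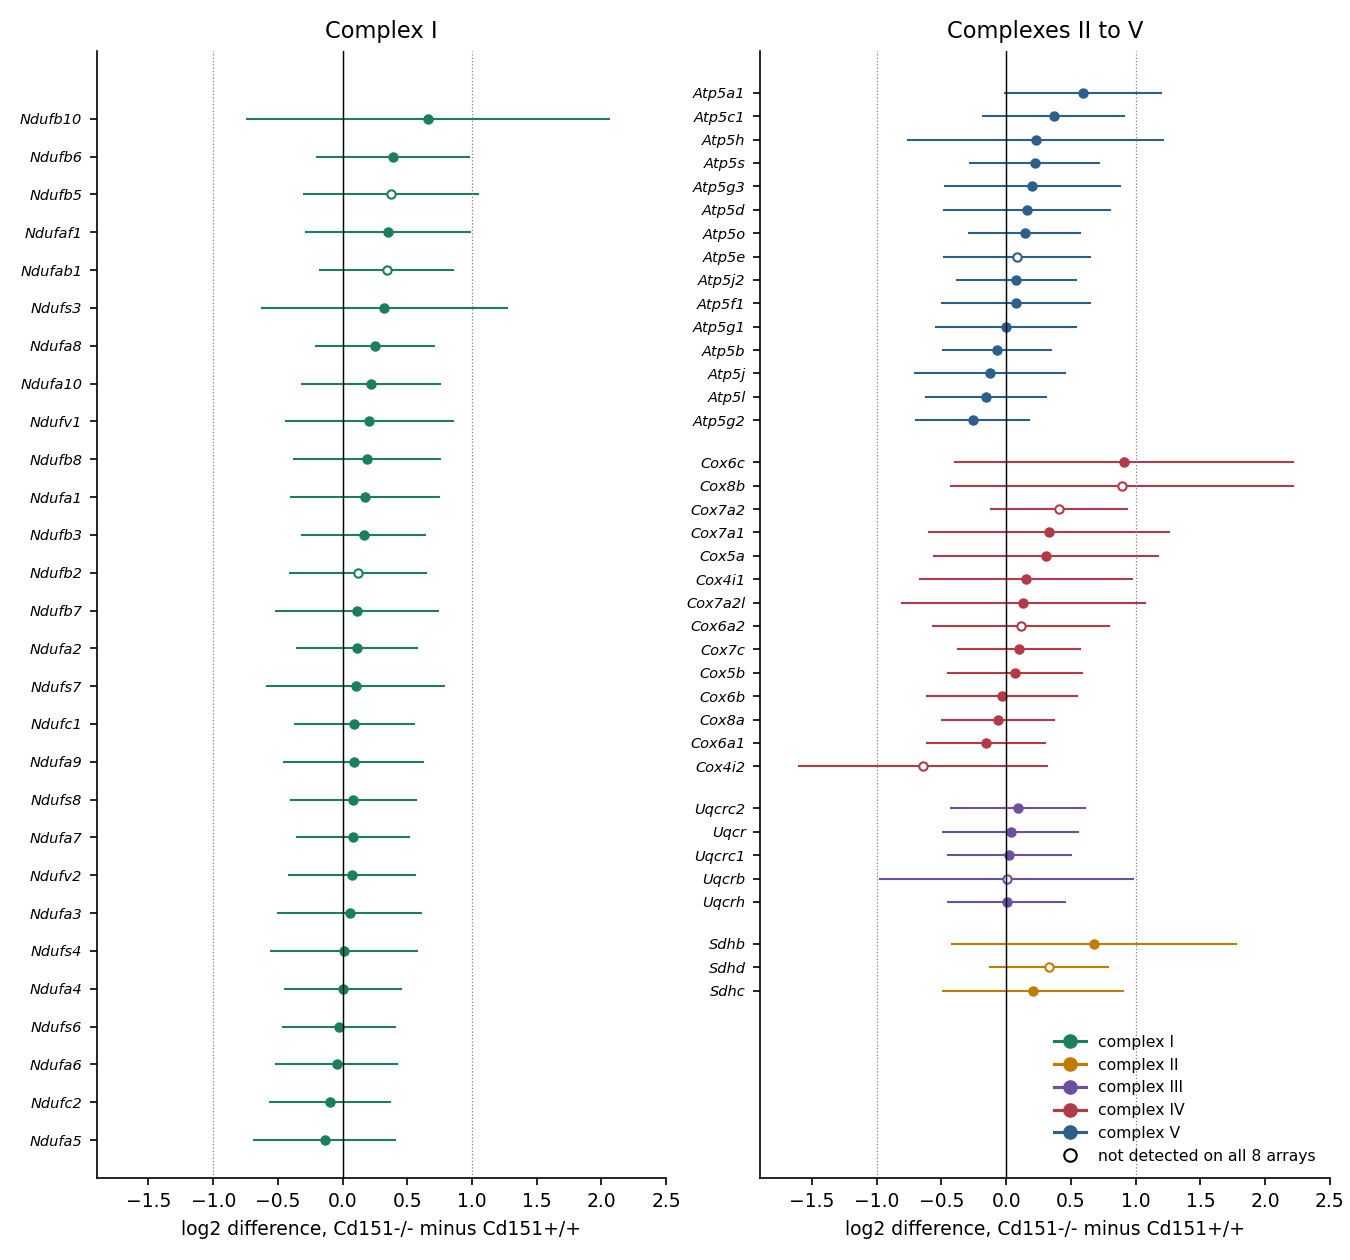
Log2 difference between genotypes (x axis, Cd151-/- minus Cd151+/+) for 65 of the 66 genes tested, with the 95% confidence interval from limma on 4 and 4 mice, coloured by complex; dotted lines mark log2 differences of -1 and 1 and open circles the genes not detected on all 8 arrays. Every interval spans 0, and the points range from -0.64 for Cox4i2 to 0.91 for Cox6c.

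Complex I, the NADH dehydrogenase, was represented by 29 tested genes, of which 24 had a difference above 0, with a median of 0.11. In the catalytic core, which carries the flavin and the iron-sulphur clusters, the 5 genes given here had differences between 0.070 and 0.32. Ndufs7, which holds an iron-sulphur cluster, was at 11.44, 11.10, 12.02 and 12.18 in Cd151+/+ mice 1 to 4 and at 12.14, 12.21, 11.26 and 11.54 in Cd151-/- mice 1 to 4. The groups overlapped, with the low values of both on the lower-background arrays, and the difference was 0.10 (SE 0.31). For Ndufs8, another iron-sulphur subunit, it was 0.081 (SE 0.22), and for Ndufv1 and Ndufv2, of the NADH-oxidising module, 0.21 (SE 0.29) and 0.070 (SE 0.22). Ndufs3 had the largest of these differences, 0.32 (SE 0.43, adjusted p = 0.920), with values that ran from 9.40 to 11.18 in the Cd151+/+ group and from 9.79 to 11.04 in the other. Ndufs1, which encodes the largest subunit of that module, was detected on no array. Ndufa4, listed with complex I by its symbol though its product belongs to complex IV, had a difference of 0.0023 (SE 0.20, 95% interval -0.44 to 0.45).

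Among the accessory subunits, which surround the core, the largest difference was that of Ndufb10, from the membrane arm. It was at 6.58, 5.68, 8.18 and 8.01 in the Cd151+/+ mice and at 8.90, 8.53, 6.56 and 7.11 in the Cd151-/- mice. The difference was 0.66 (SE 0.63, adjusted p = 0.918), and mice of both genotypes were high on the higher-background arrays and low on the others. Without Cd151+/+ mouse 2 it was 0.18, and without Cd151-/- mouse 3 it was 1.07. The lowest difference in complex I was that of Ndufa5, from the arm that faces the matrix, at -0.14 (SE 0.25, adjusted p = 0.934). Ndufab1, the mitochondrial acyl carrier protein, and Ndufb2 were not well above background in any Cd151+/+ mouse, and detected in 2 and 1 of the Cd151-/- mice.

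Complex II, succinate dehydrogenase, links the citric acid cycle to the chain, and was represented by Sdhb, Sdhc and Sdhd, with a median difference of 0.33. Sdha was not analysed here. Sdhb, the iron-sulphur subunit, was at 8.20, 7.77, 9.28 and 9.78 in Cd151+/+ and at 10.08, 9.89, 8.22 and 9.56 in Cd151-/- mice. The difference was 0.68 (SE 0.50, adjusted p = 0.918), and the genotypes overlapped. The lowest values, of Cd151+/+ mice 1 and 2 and Cd151-/- mouse 3, were again on lower-background arrays. Sdhc, a membrane anchor, was at 12.59 ± 0.52 (SD, n = 4) in Cd151+/+ and 12.79 ± 0.46 in Cd151-/- glomeruli, a difference of 0.21 (SE 0.32). Sdhd, the other anchor, was detected in 1 Cd151-/- mouse and in no Cd151+/+ mouse, and the complex II median is its value.

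Complex III, the cytochrome c reductase, showed the smallest differences. All 5 tested genes that the symbols match lay between 0.0033 and 0.091, with a median of 0.023. Uqcrc2, a core protein of the complex with the largest value, was at 13.32, 13.31, 13.11 and 13.62 in Cd151+/+ and at 13.42, 12.97, 13.49 and 13.84 in Cd151-/- mice, a difference of 0.091 (SE 0.24, 95% interval -0.43 to 0.61). For the other core protein, Uqcrc1, it was 0.023 (95% interval -0.45 to 0.50), and for Uqcrh, the hinge protein, 0.0033 (95% interval -0.45 to 0.46). Uqcrb, which binds ubiquinone, had the same mean in both genotypes, 6.44, but an interval from -0.97 to 0.98. Uqcrfs1, the Rieske iron-sulphur protein, was detected on no array. Cyc1, cytochrome c1 of this complex, has a symbol that the rule does not match and is counted with the electron carriers below. Its difference, 0.16 (SE 0.24), was larger than any of these 5.

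Complex IV, cytochrome c oxidase, held both the most positive and the most negative difference, neither past the test. Over 14 tested genes the median was 0.12, and 10 were above 0. Cox6c, a small membrane subunit, was at 7.82, 7.55, 8.07 and 9.19 in Cd151+/+ mice and at 9.88, 10.15, 7.18 and 9.06 in Cd151-/- mice. Cd151-/- mice 1 and 2 were the highest of all and Cd151-/- mouse 3 the lowest, and the difference was 0.91 (SE 0.59, 95% interval -0.39 to 2.22, adjusted p = 0.918). Cox5a and Cox5b, the subunits next to the core, had differences of 0.31 (SE 0.39) and 0.067 (SE 0.23).

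Several complex IV subunits come in isoforms that differ between tissues. Cox4i1, the common form of subunit 4, was at 12.66, 12.64, 13.85 and 13.75 in Cd151+/+ and at 13.92, 13.79, 12.73 and 13.06 in Cd151-/- mice, a difference of 0.15 (SE 0.37). Its 4 low values were those of the lower-background arrays. Cox4i2, the isoform known from lung and from oxygen sensing, was at 7.27, 7.21, 5.13 and 6.24 in Cd151+/+ and at 5.39, 5.94, 6.23 and 5.71 in Cd151-/- mice. Only Cd151+/+ mice 1 and 2 stood above 7, and the difference was -0.64 (SE 0.43, 95% interval -1.60 to 0.31, adjusted p = 0.918). It was -1.26 within the lower-background arrays and -0.023 within the higher.

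Of the forms known from heart and skeletal muscle, Cox7a1 was at 9.54, 9.29, 9.25 and 10.26 in Cd151+/+ and at 9.75, 8.99, 9.75 and 11.17 in Cd151-/- mice, a difference of 0.33 (SE 0.42). Without Cd151-/- mouse 4 this difference was -0.089. Cox8b was not well above background in any Cd151+/+ mouse and was detected in 2 Cd151-/- mice, at 4.93, 5.27, 4.65 and 7.96 in mice 1 to 4. The value of Cd151-/- mouse 4 set the group mean, and without this mouse the difference was 0.14. Against the lowest detected signal of each Cd151+/+ array the group mean was at least 1.25-fold higher, a bound that rests on this 1 mouse (adjusted p = 0.918). The probe passed the detection filter only through Cd151-/- mice. Cox8b is the only one of the 73 genes within 10 Mb of Cd151. Ucp1, Cidea and Elovl3, markers of brown fat, in which Cox7a1 and Cox8b are also known to be active, were not detected on any array. They were chosen after values were seen, and the cause of the high Cox8b value in Cd151-/- mouse 4 was not tested.

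For the common partners of these isoforms the differences were -0.060 for Cox8a (SE 0.20), -0.15 for Cox6a1 (SE 0.21) and -0.032 for Cox6b (SE 0.26), the symbol the array uses for Cox6b1. Cox6a2, a muscle form, had a difference of 0.11 (SE 0.31) and was detected in 5 of the mice, and Cox7a2 in 2. Cox7a2l, whose product joins complexes III and IV in supercomplexes, had a difference of 0.13 (SE 0.43). Cox8c was detected on no array. Cox6b2 carries the symbol Coxvib2 on the array, which the rule does not match, so it is in no count here. Its brighter probe was at 7.86, 7.96, 7.94 and 7.87 in Cd151+/+ and at 7.59, 7.05, 7.69 and 7.68 in Cd151-/- mice. These groups did not overlap, as for 1.46% of all probes downward, and the difference was -0.40 (adjusted p = 0.918). A dim second probe gave 0.25. Coxvib2 was looked up after values were seen.

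ATP synthase, complex V, makes ATP in its F1 head from the proton flow through the c ring. Over 15 tested genes the median difference was 0.086, and 10 were above 0. That median is the value of Atp5e, of F1, which was detected in 1 Cd151-/- mouse and in no Cd151+/+ mouse. Atp5a1, the alpha subunit of F1, had the lowest p of all members. Its probe was dim, though detected on every array, where the lowest detected signal lay between 5.22 and 5.48. It was at 6.39, 6.34, 5.71 and 5.64 in Cd151+/+ and at 6.54, 6.60, 6.18 and 7.13 in Cd151-/- mice. Only Cd151-/- mouse 3 lay within the Cd151+/+ range, and the difference was 0.59 (SE 0.27, 95% interval -0.01 to 1.20, adjusted p = 0.918). An exact permutation test, two-sided and over all 70 ways to split the mice, gave a p of 0.114, where 0.0286 is the smallest it can give.

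The other F1 genes did not share the size of that difference. Atp5b, the catalytic beta subunit, was at 15.36, 15.29, 15.29 and 15.29 in Cd151+/+ and at 15.08, 15.14, 15.31 and 15.42 in Cd151-/- mice, a difference of -0.070 (SE 0.19). It is among the brightest probes of every array, and 3 mice share a value because the probe had the same rank there. Atp5c1, the central stalk, had a difference of 0.37 (SE 0.25, adjusted p = 0.918). The c ring, encoded by 3 genes for the same mature protein, gave -0.0017 for Atp5g1 (SE 0.24), -0.26 for Atp5g2 (SE 0.20) and 0.20 for Atp5g3 (SE 0.31). Atp5g2, the lowest of complex V, was at 10.73, 10.57, 10.68 and 11.02 in Cd151+/+ and at 10.36, 10.43, 10.60 and 10.59 in Cd151-/- mice, and the groups overlapped only at Cd151+/+ mouse 2. Its adjusted p was 0.918. Atp5o, in the peripheral stalk, had a difference of 0.14 (SE 0.19), and Atp5j2, a membrane subunit, of 0.077 (SE 0.21).

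Between mice the genes of the chain moved by more than between genotypes. The signal of each gene was set against its own mean over the 8 mice, and the median of these values over the 66 genes was -0.13, -0.26, -0.074 and 0.21 in Cd151+/+ mice 1 to 4 and 0.10, 0.010, -0.12 and 0.21 in Cd151-/- mice 1 to 4. The genotypes overlapped, and Cd151+/+ mouse 4 and Cd151-/- mouse 4 were the highest. Over all genes the same medians stayed between -0.052 and 0.013. Cd151-/- mouse 4 had the highest value of the 8 mice for 29 of the 66 genes (43.9%, against 18.1% of all genes), and Cd151+/+ mouse 2 the lowest for 21 (31.8%, against 12.1%). In each of the 5 complexes, too, the genotypes overlapped.

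**Figure D2:**
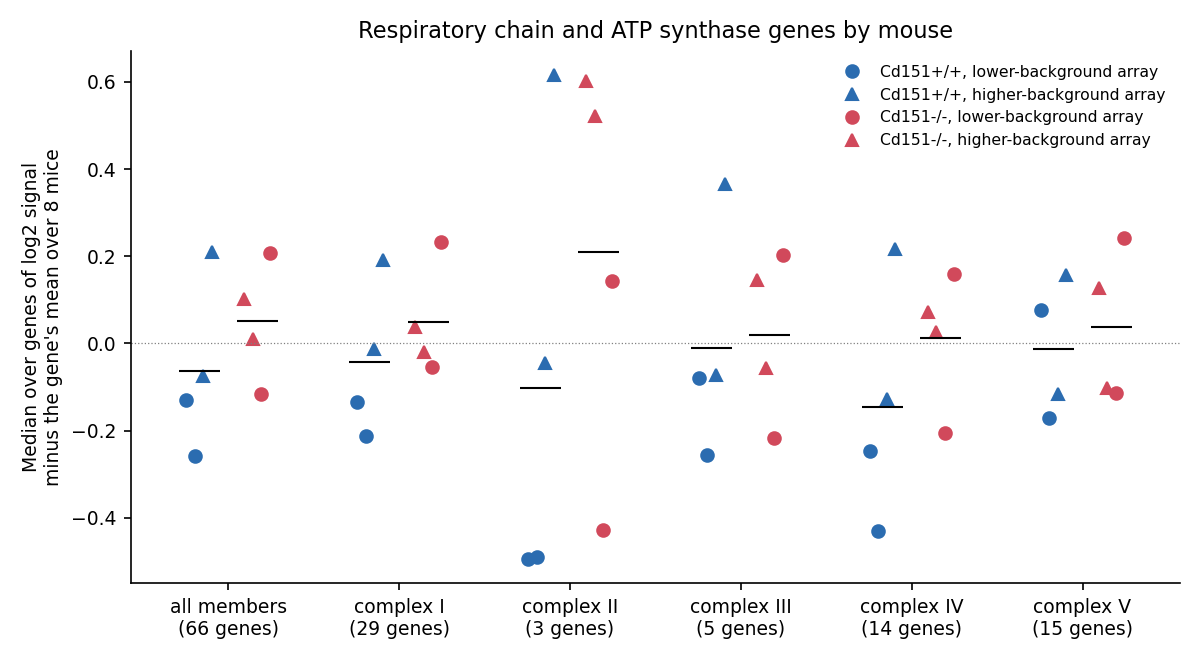
Median over the genes of all 5 complexes and of each complex (y axis, log2 signal minus the mean of each gene over the 8 mice) in each mouse, with Cd151+/+ in blue, Cd151-/- in red, circles for lower-background and triangles for higher-background arrays, and a bar at the mean of each genotype. The genotypes overlap in every column, and in complex II the values run from -0.49 to 0.62.

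The upward lean was that of the lower-background arrays. There, Cd151-/- mice 3 and 4 against Cd151+/+ mice 1 and 2, the median difference over the 66 genes was 0.26, and 61 genes (92.4%) were above 0, against 47.8% of all genes. Within the higher-background arrays, Cd151-/- mice 1 and 2 against Cd151+/+ mice 3 and 4, the median was -0.048 and 28 genes (42.4%) were above 0, against 49.3% of all genes. For 26 genes the difference was above 0 in both sets, for 3 below 0 in both, and for 37 the signs were opposite. Over all genes, 29% were above 0 in both sets and 31.9% below 0 in both, against 39.4% of the members above 0 in both. By complex the medians in the lower and higher sets were 0.29 and -0.032 for complex I, 0.22 and 0.46 for complex II, 0.25 and -0.17 for complex III, 0.29 and -0.034 for complex IV and 0.20 and -0.07 for complex V. The complex V median in the higher set is the value of Atp5e, a gene near background. With 2 mice of each genotype in a set, these values carry no test.

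**Figure D3:**
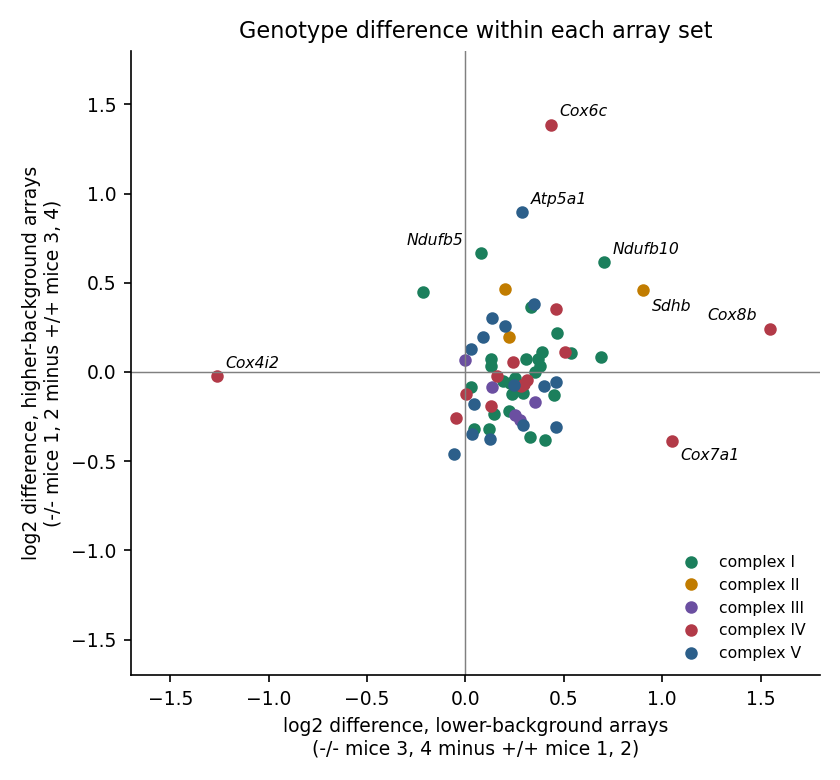
Difference between genotypes (log2) for each of the 66 genes within the lower-background arrays (x axis) and within the higher-background arrays (y axis), coloured by complex, each value from 2 against 2 mice. Points lie right of 0 for 61 genes and above 0 for 28, and Cox6c, Atp5a1, Ndufb10, Sdhb, Cox8b, Cox7a1 and Cox4i2 stand away from the rest.

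With the array set as a block in limma, 7 of the 78 probes (8.97%) were higher in Cd151-/- glomeruli at an unadjusted p below 0.05 and 0 lower, beside 5.21% and 6.08% of all probes, and 0 passed adjustment, which 0.0535% of all probes did. The 7 were for Ndufb10, Atp5a1, Sdhb with 2 probes and Ndufs4 with 3 probes. Between the sets themselves 21 of the 78 probes (26.9%) differed at an adjusted p below 0.05, against 23.9% of all probes. On the higher-background arrays 18 of them (23.1%) were higher and 3 (3.85%) lower, against 13.2% and 10.7% of all probes. By the probe that stands for each gene, the largest difference between sets was that of Ndufb10, 1.92. Next were Cox6c with 1.42, Sdhb with 1.32, Atp5h, of the peripheral stalk, with 1.31, and Cox7a2l with 1.26. A dimmer probe of Ndufs4 gave 1.66, while its brightest gave -0.0027. Lower on the higher-background arrays were Atp5j with -0.55, Cox6b with -0.54 and a dim probe of Atp5l with -1.12.

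Ndufs4, an accessory subunit of complex I whose loss causes complex I deficiency, showed how far this depended on the probe. It was singled out after its values were seen. The brightest of its 4 probes, ILMN_1234521, was at 11.79, 11.76, 11.90 and 12.43 in Cd151+/+ and at 11.94, 11.62, 11.83 and 12.52 in Cd151-/- mice. Its difference between genotypes was 0.0099 (SE 0.26), and that between array sets -0.0027. A second, ILMN_2640944, was at 5.56, 6.24, 7.23 and 8.10 in Cd151+/+ and at 8.28, 8.55, 6.51 and 7.22 in Cd151-/- mice.

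For that second probe the genotypes differed by 0.86 (SE 0.57, adjusted p = 0.918) and the sets by 1.66. The other 2, ILMN_2900025 and ILMN_2663694, gave 1.12 (SE 0.57) and 0.66 (SE 0.36) between genotypes and 1.58 and 0.89 between sets. All 3 dimmer probes had their lowest value in Cd151+/+ mouse 1 and their highest in Cd151-/- mouse 2, which for the brightest probe was the mouse with the lowest value.

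Sdhb also depended on the probe, but there the brighter probes gave the larger differences. Its probes ILMN_2769065 and ILMN_2769064 gave 0.68 and 0.69 between genotypes, whereas the dim ILMN_2592389, detected in 3 mice, gave -0.24 (SE 0.32). Of the 9 genes with more than 1 tested probe, 5 had probes of opposite sign, among them Sdhb, Cox6a1, Cox6b and Atp5l. The probe sequences were not used here, so which transcripts each probe reads was not tested.

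**Figure D4:**
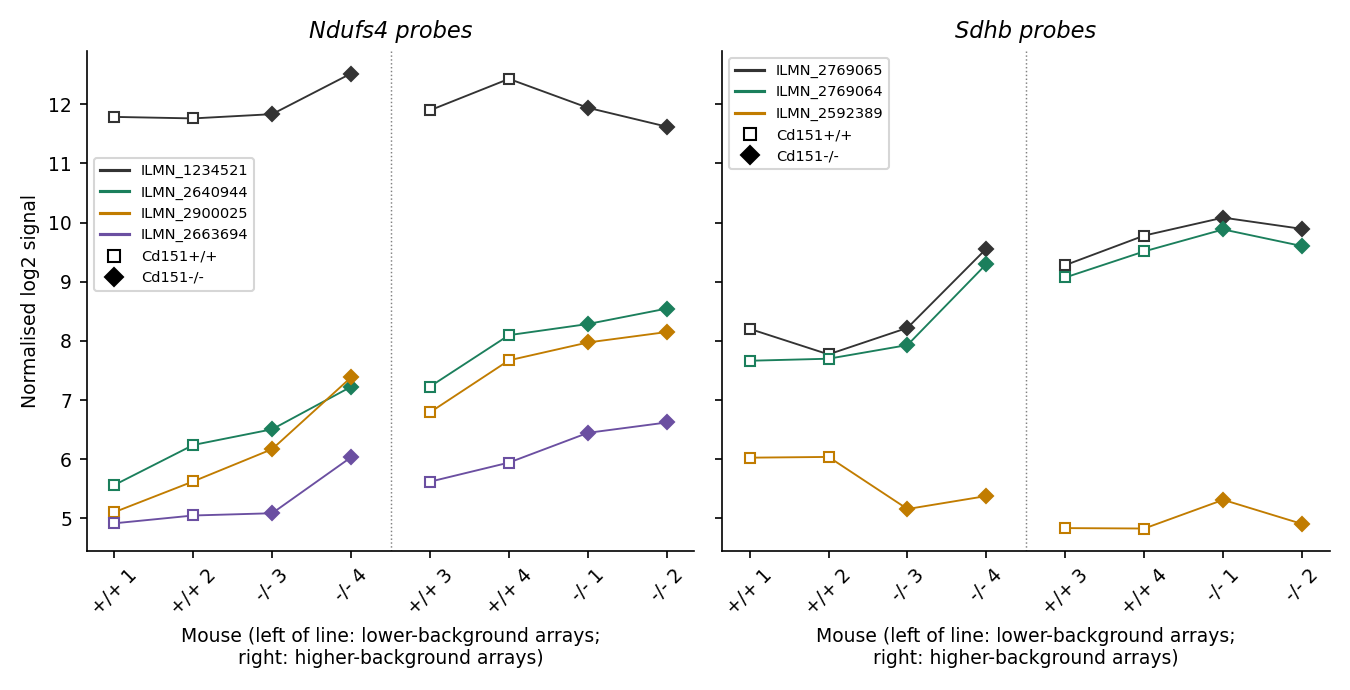
Normalised log2 signal (y axis) of the 4 Ndufs4 probes and the 3 tested Sdhb probes in each of the 8 mice (x axis), with open squares for Cd151+/+ and filled diamonds for Cd151-/- mice and lines that only join the points of 1 probe within an array set. The brightest Ndufs4 probe stays between 11.62 and 12.52, while ILMN_2640944 runs from 5.56 to 8.55.

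Markers of other cells in the isolate were read beside these values. All 12 tested proximal tubule markers had a difference above 0, with a median of 0.59. Kap, an androgen-regulated gene of the proximal tubule, was the 1 past an unadjusted p of 0.05, at 1.38 (adjusted p = 0.918). The median of this list per mouse, centred in the same way, was -0.93, -0.56, -0.21 and 0.37 in Cd151+/+ and 0.53, -0.19, -0.09 and 0.93 in Cd151-/- mice. Cd151-/- mouse 4 was the highest of this list, and Cd151+/+ mice 1 and 2 were the lowest, as they were for the chain. The brush-border phosphate transporter Slc34a1, a defining marker, was detected on all 8 arrays. The part of tubule RNA in the values of the chain was not tested.

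Of the other lists, loop, distal tubule and collecting duct markers had a median of -0.35, with 2 of 8 above 0, podocyte markers -0.31, with 0 of 5, and glomerular endothelial markers -0.35, with 1 of 9. Mesangial and smooth muscle markers were at -0.048 with 3 of 7 above 0, leukocyte markers at 0.087 with 4 of 5, erythroid markers at -0.63 with 0 of 4 and immediate early genes at -1.02 with 0 of 6. Past an unadjusted p of 0.05, though not an adjusted one, were Acta2, higher in Cd151-/- glomeruli, and Plce1, Pdgfrb, Alas2, Hba-a1, Jun and Junb, lower.

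Other mitochondrial genes were taken in 5 lists, and in none of them was any gene past an unadjusted p of 0.05 in either direction in limma. With the array set as a block, 4 of 18 assembly factors, 3 of 11 electron carriers and exchangers and 5 of 65 mitochondrial ribosomal proteins were higher in Cd151-/- glomeruli at an unadjusted p below 0.05, and 0 genes of the 5 lists were lower, beside the 5.21% and 6.08% of all probes. The list counts are of genes, by the brightest probe of each, and the share over all genes is not given here. Assembly factors of the complexes, such as Surf1 and Bcs1l, had a median of 0.22 with 15 of 18 above 0. Electron carriers and exchangers had one of 0.19 with 9 of 11, and pyruvate dehydrogenase and the citric acid cycle, which feed the chain with NADH and succinate, one of 0.32 with 13 of 15. Mitochondrial ribosomal proteins, which translate the mitochondrially encoded subunits, had one of 0.18 with 51 of 65.

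In the citric acid cycle list, Mdh2, malate dehydrogenase, was at 7.78, 7.85, 9.33 and 9.71 in Cd151+/+ and at 10.09, 9.70, 7.75 and 8.98 in Cd151-/- mice, a difference of 0.46 (SE 0.56). As for Sdhb, within each genotype its values on lower-background arrays were below those on higher-background arrays. Slc25a3, the phosphate carrier that supplies ATP synthase, had a difference of 0.59 (SE 0.62) between genotypes and of 1.91 between sets.

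Regulators of mitochondrial biogenesis had a median of 0.11, with 9 of 14 above 0. Ppargc1a, the coactivator that switches on genes of the chain, had the opposite sign. It was at 7.17, 6.09, 6.55 and 7.92 in Cd151+/+ and at 6.51, 6.29, 5.84 and 6.41 in Cd151-/- mice, a difference of -0.67 (SE 0.36, adjusted p = 0.918), and the groups overlapped. Its partners differed less, Esrra by 0.29 (SE 0.26), Nrf1 by -0.18 (SE 0.24) and Tfam, which maintains mitochondrial DNA, by 0.24 (SE 0.52).

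The promoters of these genes are known to hold sites for NRF-1, for the ETS factor GABP, for YY1 and for oestrogen-related receptors (ERR), which act together with Ppargc1a. Of the 73 genes, 60 had a RefSeq promoter entry, and the 250 bases before the start were searched on both strands. The ETS string CCGGAAG was found in 13 of 60 (21.7%, against 7.83% of all 27025 genes), the NRF-1 palindrome, whose letters stand in capitals in the Cox6a1 and Atp5g2 stretches below, in 3 (5.00%, against 0.877%), the YY1 string AAGATGGCG in 1 (1.67%, against 0.710%) and the ERR string TCAAGGTCA in 1 (1.67%, against 0.422%). The ETS and YY1 strings can share the letters AAG, which did not occur in the stretches below. The median number of CpG in this window was 14 in the member promoters and 6 over all.

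Printed here are 4 of these stretches, chosen so that each of the 4 strings is seen, from mouse assembly GRCm38.p6 on the minus strand and written 5′ to 3′ towards the start, with matches in capitals. They lie at chr5:115348959-115349208 (Cox6a1, NRF-1 and then ETS), chr16:84834977-84835226 (Atp5j, YY1 and then ETS), chr15:102671048-102671297 (Atp5g2, NRF-1) and chr2:73911327-73911576 (Atp5g3, ERR).
Cox6a1: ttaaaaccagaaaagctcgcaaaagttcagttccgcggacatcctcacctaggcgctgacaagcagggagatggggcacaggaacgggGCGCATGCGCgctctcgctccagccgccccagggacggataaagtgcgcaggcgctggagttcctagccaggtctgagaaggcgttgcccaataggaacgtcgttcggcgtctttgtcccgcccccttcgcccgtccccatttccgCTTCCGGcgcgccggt
Atp5j: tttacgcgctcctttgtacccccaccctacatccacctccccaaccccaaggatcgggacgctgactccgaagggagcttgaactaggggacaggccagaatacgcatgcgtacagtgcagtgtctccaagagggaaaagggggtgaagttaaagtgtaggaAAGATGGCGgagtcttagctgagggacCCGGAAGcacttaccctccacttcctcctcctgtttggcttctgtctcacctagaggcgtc
Atp5g2: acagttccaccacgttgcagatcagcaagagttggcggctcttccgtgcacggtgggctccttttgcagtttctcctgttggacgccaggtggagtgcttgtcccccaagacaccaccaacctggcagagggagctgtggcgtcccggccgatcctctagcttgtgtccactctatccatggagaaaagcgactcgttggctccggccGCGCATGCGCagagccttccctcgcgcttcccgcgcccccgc
Atp5g3: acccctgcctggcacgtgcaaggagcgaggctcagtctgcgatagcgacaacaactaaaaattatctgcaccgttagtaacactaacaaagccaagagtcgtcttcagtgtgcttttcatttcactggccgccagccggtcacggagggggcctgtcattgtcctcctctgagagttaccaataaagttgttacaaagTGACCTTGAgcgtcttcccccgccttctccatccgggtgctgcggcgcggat
In the glomeruli these 4 genes had differences of -0.15 (Cox6a1), -0.12 (Atp5j), -0.26 (Atp5g2) and 0.20 (Atp5g3), none past the test. A match is a string of letters and no measured site.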

How the data were processed

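Glomerular RNA of 4 Cd151+/+ and 4 Cd151-/- mice was measured on 8 arrays. The deposited table holds raw signal intensity, neither background-subtracted nor normalised, beside the detection p-value that the scanner software gave. The submitters' processing notes name GenomeStudio, with no version. The study's methods describe cubic spline normalisation, a detection filter and SAM for its own lists. The genome build behind the probes is not given in the sources used here.

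Groups came from the sample labels. In R 4.3.3 with limma 3.58.1, array background was inferred from the detection p-values, neqc was applied (offset 16, quantile normalisation), and genotype was fitted with lmFit and eBayes over the 14967 probes that were detected (p-value up to 0.05) on any array, with Benjamini-Hochberg adjustment over them. Of several probes for a gene, that with the highest mean over the 8 mice stands for the gene. SAM used all 70 relabelings and an FDR below 0.2. A bound is the mean of the detected group against the lowest detected signal per array. Named were the subunits of the core, the isoform families of complex IV and the largest rise and fall in each complex, also any probe with an unadjusted p below 0.05 (there was 0). All 73 symbols matched a gene of GRCm38.p6, directly or through a synonym. Its positions served to tell which genes neighbour Cd151, and the RefSeq promoter windows are on the same assembly.

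Values of 1 member gene and 1 marker gene are not reported here, though both stayed in the counts and medians. The members, gene lists, array sets and alternatives were chosen with earlier results of these data known. Alternatives were no background correction, cubic spline, 75th percentile scaling, offset 50, other detection filters, the mouse number or the array set as a block, a trended robust variance, array weights, the mean of all probes, and each mouse left out. Scripts were tested on simulated data. Same-numbered mice of the 2 genotypes were not paired by any label. Detected signals were 3.02 to 4.56 times the background at the median of an array, and the number of arrays limits the precision.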

Additional observations from a re-analysis of the deposited data

Results flagged for a closer look

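In 2 of 92 groups of 4 values examined, 1 mouse stood apart by Dixon's criterion, fewer than the 1 in 20 that chance flags. For Ndufv2, Cd151-/- mouse 3 was low at 12.60, where the highest of the group was 13.04. For Atp5b, Cd151+/+ mouse 1 was at 15.36 and the other 3 shared the value 15.29.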

How the results depend on the processing

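No probe of the chain passed adjustment under any alternative. At an unadjusted p below 0.05, the count of member probes higher in Cd151-/- glomeruli was 0 in the main fit. With no detection filter it went to 2 of 88, beside 1.68% of all probes. With the array set as a block it went to 7 of 78, beside 5.21% of all probes. With array weights it went to 21 of 78, with 2 lower, beside 15.6% and 16.6% of all probes. The weights also gave a complex IV median of 0.35 (0.12 without weights). The cause was not tested. In the other 113 summary values the counts stayed at 0 and the medians moved by less than 1 SD between mice of a genotype. With the mouse number as a replicate block, 0 members were called in either direction. No label ties same-numbered mice, so the numbers were not taken as pairs. Their correlations of deviations were -0.58, -0.40, -0.53 and -0.0086. Same-numbered mice lay in opposite array sets, so these correlations cannot tell whether the mice were paired.

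With 1 mouse left out, 0 to 7 probes were higher and 0 to 1 lower at an unadjusted p. Omission of Cd151-/- mouse 3 gave the 7, where 4.25% of all probes were higher. That of Cd151+/+ mouse 4 gave 3, where 2.96% were. Omission of wild type mouse 1 or 2 gave 1, where 0.944% and 1.12% were. The 1 lower probe came with Cd151+/+ mouse 3 omitted, where 3.36% of all probes were lower. Groups that did not overlap were found for 0 to 4 probes upward and for 0 to 1 downward. The 4 came on omission of Cd151-/- mouse 3 or of wild type mouse 4. Omission of either mouse numbered 2 gave 1 upward, and that of wild type mouse 2 or 3 gave the 1 downward. With 1 mouse left out, groups separate more easily by chance than with all mice. The share of all probes is not given for these omissions, so whether such counts are unusual was not tested. The median over the 66 genes of the chain ran from 0.036 without Cd151+/+ mouse 2 to 0.19 without Cd151+/+ mouse 4. That of complex III ran from -0.048 to 0.17, and that of complex IV from 0.0068 to 0.33.

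Of the larger differences, that of Cox7a1, 0.33, changed sign without Cd151-/- mouse 4, to -0.089. Others kept their sign but moved in size. Sdhb ran from 0.35 without wild type mouse 2 to 1.09 without Cd151-/- mouse 3. Ndufs3 ran from 0.060 without wild type mouse 2 to 0.65 without wild type mouse 4. Cox5a ran from 0.10 without wild type mouse 1 to 0.61 without wild type mouse 4. Cox6c ran from 0.55 without Cd151-/- mouse 2 to 1.54 without Cd151-/- mouse 3.

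Single genes changed sign, most of them near 0 and none of them past the test. This was so with no background correction for Uqcrb (-0.0078), with cubic spline for Cox5b (-0.0054), Ndufa4 (-0.098), Uqcrb (-0.0059) and Uqcrh (-0.071), with 75th percentile scaling for Atp5g1 (0.0010), Cox6a2 (-0.040), Ndufa4 (-0.032), Uqcrb (-0.052) and Uqcrh (-0.0062), and with array weights for Atp5j2 (-0.051) and Cox8a (0.074). With 1 mouse left out the sign changed within -0.15 to 0.16 for Atp5g1, -0.035 to 0.14 for Atp5j2, -0.046 to 0.36 for Cox4i1, -0.048 to 0.18 for Cox5b, -0.052 to 0.38 for Cox6a2, -0.22 to 0.14 for Cox6b, -0.089 to 0.64 for Cox7a1, -0.13 to 0.39 for Cox7a2l and -0.11 to 0.023 for Cox8a. It did so within -0.090 to 0.11 for Ndufa4, -0.092 to 0.28 for Ndufs7, -0.048 to 0.21 for Ndufs8, -0.013 to 0.19 for Ndufv2, -0.28 to 0.37 for Uqcrb, -0.063 to 0.15 for Uqcrc1, -0.044 to 0.24 for Uqcrc2 and -0.064 to 0.10 for Uqcrh.

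With 4 mice a genotype and 2 of each in an array set, the number of arrays limits the precision. Whether the array sets are chips, days or isolations is not given in the labels. Of the genes with no detected value in Cd151+/+ mice, Cox8b alone has a bound. The differences of these genes rest partly on signals near background.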
